A study of Mus musculus with 10 samples.

Results

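The S100 genes encode small calcium-binding proteins, and 10 of them from the cluster on chromosome 3 were followed here in the inflamed esophagus: S100a8, S100a9, S100a7a, S100a3, S100a4, S100a6, S100a10, S100a11, S100a14 and S100a16. They were taken by symbol from a table of 54446 genes, each symbol matched 1 gene, and all 10 passed the filter of a mean of at least 5 normalized counts that left 14712 genes for testing. RNA came from whole esophagus of wild-type C57BL/6 mice given vehicle (5 libraries, A1 to A5) or oxazolone (OXA, 5 libraries, C1 and D1 to D4). Oxazolone is a skin-reactive hapten that was used to set off an allergic inflammation resembling human eosinophilic esophagitis. The sources used here do not give the age and sex of the mice, the OXA dose and schedule, or what the letters stand for. As no letter occurs in both groups, anything that differs between the letters and the effect of OXA cannot be told apart. Polyadenylated RNA was counted at its 3′ end by CEL-Seq, in which RNA is amplified linearly before sequencing. Counts assigned to genes, recovered from the normalized values as whole reads or molecules, totalled 5094159 to 12108822 per library for vehicle and 3675479 to 8364227 for OXA. Since the labels do not state that each library came from its own animal, the p-values speak only of the variation among these 10 libraries.

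S100 proteins share a pair of calcium-binding EF hands and mostly act as dimers. S100a8 and S100a9 form the heterodimer calprotectin, which neutrophils and monocytes store in large amounts and which stressed or wounded stratified epithelium makes as well. Outside the cell calprotectin binds zinc and manganese, which withholds them from microbes, and it engages Toll-like receptor 4 and the receptor RAGE, so its subunits are called alarm proteins or alarmins. S100a7a is the mouse relative of human psoriasin, an antimicrobial protein of inflamed skin. The other members work mainly inside the cell, on annexins, myosin and membrane repair, and several of them are steady components of keratinocytes. The contrast drawn here is between the alarm members (S100a8, S100a9 and S100a7a) and the other 7.

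The promoter windows of the 3 alarm members and of S100a4 are shown because S100a8, S100a9 and S100a4 rose under OXA by very different amounts and S100a7a fell. Each window runs 5′ to 3′ from 250 bases before to 50 bases after a RefSeq start site on GRCm38.p6. The windows are chr3:90668821-90669120 (plus strand) for S100a8, chr3:90695672-90695971 (minus strand) for S100a9, chr3:90654052-90654351 (plus strand) for S100a7a and chr3:90603520-90603819 (plus strand) for S100a4. Capitals mark matches to TATAAA, to the C/EBP-type motif TTGCNNAA and to the STAT-type motif TTCNNNGAA.
S100a8: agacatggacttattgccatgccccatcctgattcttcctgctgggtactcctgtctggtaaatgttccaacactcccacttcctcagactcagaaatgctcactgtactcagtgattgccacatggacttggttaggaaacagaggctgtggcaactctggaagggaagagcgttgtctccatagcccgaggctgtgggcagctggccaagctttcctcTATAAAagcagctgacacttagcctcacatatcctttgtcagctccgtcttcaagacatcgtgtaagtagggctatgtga
S100a9: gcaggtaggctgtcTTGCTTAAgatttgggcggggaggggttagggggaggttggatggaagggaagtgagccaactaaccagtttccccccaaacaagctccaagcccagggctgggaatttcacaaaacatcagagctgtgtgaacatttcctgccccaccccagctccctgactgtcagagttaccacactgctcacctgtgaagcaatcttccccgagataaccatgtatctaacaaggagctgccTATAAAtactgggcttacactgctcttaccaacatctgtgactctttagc
S100a7a: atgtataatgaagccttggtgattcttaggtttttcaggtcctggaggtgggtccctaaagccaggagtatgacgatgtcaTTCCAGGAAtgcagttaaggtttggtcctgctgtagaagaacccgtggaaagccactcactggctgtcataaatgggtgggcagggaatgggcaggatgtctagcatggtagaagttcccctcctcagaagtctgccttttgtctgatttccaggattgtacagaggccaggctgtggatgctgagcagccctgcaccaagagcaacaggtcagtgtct
S100a4: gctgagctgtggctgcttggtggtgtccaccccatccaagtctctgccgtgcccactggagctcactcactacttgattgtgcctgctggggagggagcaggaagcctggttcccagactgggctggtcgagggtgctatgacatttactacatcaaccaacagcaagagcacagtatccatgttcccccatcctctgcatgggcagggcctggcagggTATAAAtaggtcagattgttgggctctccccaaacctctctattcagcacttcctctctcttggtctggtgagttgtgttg

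Motifs were searched on both strands in the 12 windows that RefSeq gave for 8 of the 10 members. TATAAA lay 30 bases upstream of the S100a8 start, 31 bases upstream of the S100a4 start and at the annotated start of S100a9, and it was held by 1 of the windows of S100a3. Of 32544 distinct promoter windows of the same length, 13.6% hold it. The C/EBP-type motif stood 236 bases upstream of S100a9 and is held by 10.8% of all windows. The STAT-type motif stood 169 bases upstream of S100a7a, against 8.33% of all windows. AP-1 sites (TGANTCA, held by 7.79% of windows) were found in S100a11, 136 and 38 bases upstream, and in 1 window of S100a16, and an NF-kB-type match (GGG, 2 free bases, TT, 1 free base and CC; 4.78% of windows) in another window of S100a16. The STAT6-type motif, TTC and GAA held apart by 4 free bases (6.98% of windows), matched no member window, and it was counted apart from the STAT-type motif, with which it can share bases. The window of S100a6, which also rose under OXA, matched none of the motifs, while S100a3, with TATAAA, did not pass the test. All matches given are matches of letters and not measured binding sites.

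Under OXA 4 of the 10 members rose (S100a8, S100a9, S100a4 and S100a6), 2 fell (S100a14 and S100a7a) while 4 did not pass the test (S100a16, S100a11, S100a10 and S100a3). Over all 14712 genes tested, 15.7% were called higher and 14.2% lower, 29.9% in all, by limma on log2(value + 1) with Benjamini-Hochberg adjustment over all of them. The median log2 fold change of the members was -0.08, beside -0.01 over all genes tested. In 3 members every OXA library lay above every vehicle library (12.0% of all genes tested), and in 1 every OXA library lay below (10.4%). By the exact two-sided permutation test of each member, without adjustment, 7 of 10 had p under 0.05 (the 6 called ones and S100a3), beside 39.3% of all genes tested. Whole tissue was measured, so fewer cells of a type and less RNA per cell cannot be told apart.

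**Figure D1:**
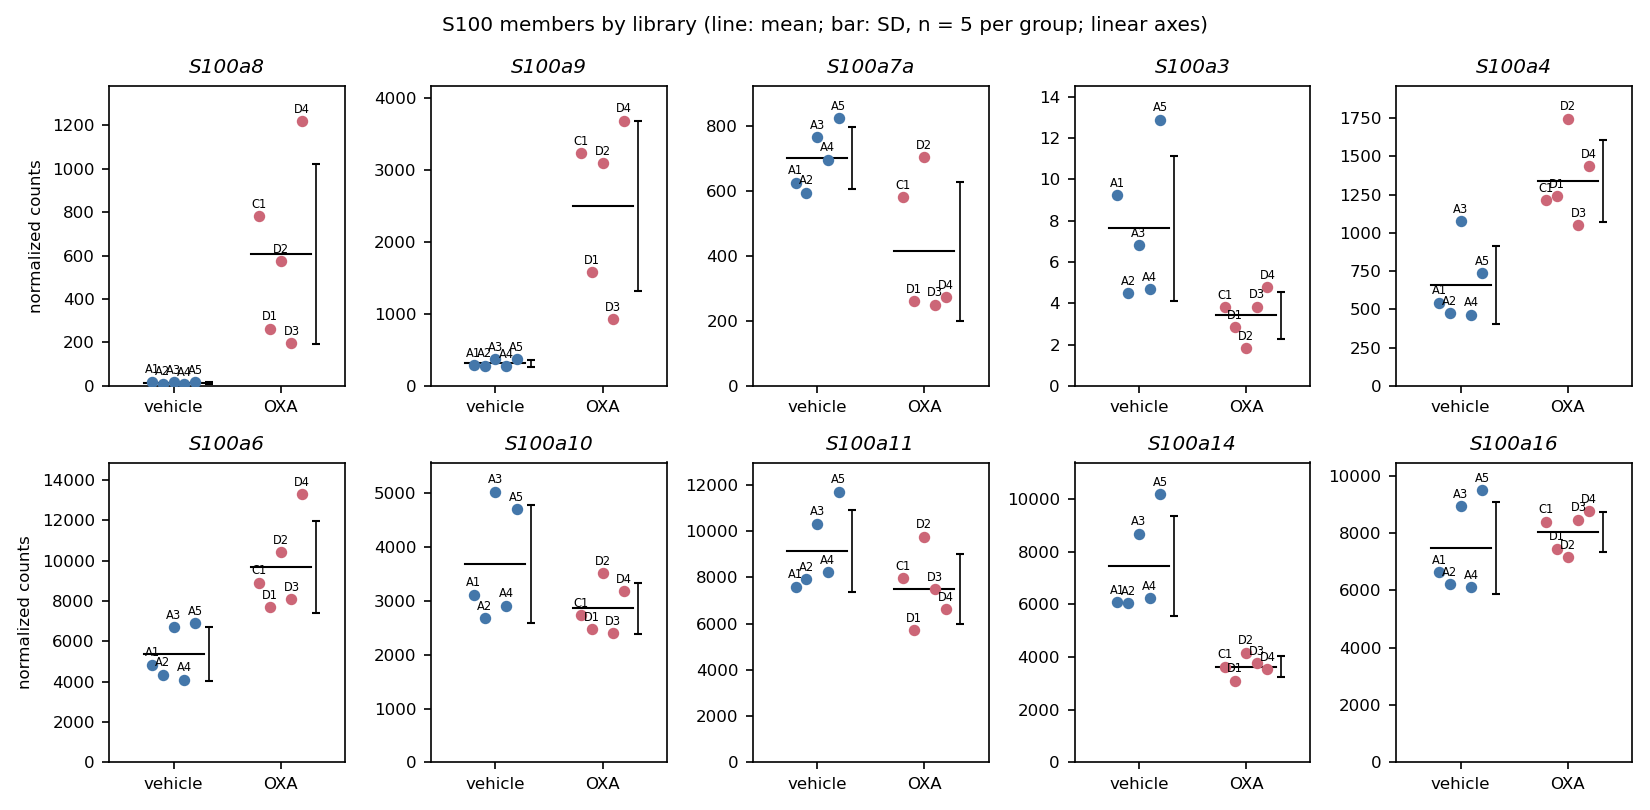
Normalized counts of each of the 10 members in each library, on linear axes that start at 0, with the group mean (line) and SD (bar, n = 5 per group). S100a8, S100a9 and S100a6 were higher in all 5 OXA libraries than in any vehicle library and S100a14 was lower, while the groups overlapped in the other 6.

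S100a8 showed the widest change of the family. It lies on the plus strand of chromosome 3 (chr3:90668978-90670335, ENSMUSG00000056054.9). Its normalized counts in vehicle were 19.52 in A1, 9.75 in A2, 17.54 in A3, 8.31 in A4 and 15.74 in A5. In OXA they were 780.88 in C1, 263.71 in D1, 575.72 in D2, 198.25 in D3 and 1218.02 in D4. No vehicle library came near the lowest OXA library, D3, and the OXA libraries themselves spread over 6.14-fold. The vehicle values stood for 11 to 19 reads per library and the OXA values for 207 to 1023. The mean went from 14.2 ± 4.91 to 607 ± 415 (SD, n = 5 each). On the log2 scale this was 5.09 ± 0.43 (SE, 95% interval 4.17 to 6.01, adjusted p = 2.13e-06, limma), a 34.0-fold rise that ranked 22 among the 14712 genes tested.

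S100a9, which encodes the other subunit of calprotectin, lies on the minus strand 22.0 kb further on (chr3:90692332-90695721, ENSMUSG00000056071.12). In vehicle it was already at 286.59 in A1, 279.74 in A2, 372.21 in A3, 274.73 in A4 and 372.03 in A5. Under OXA it reached 3235.74 in C1, 1581.54 in D1, 3097.68 in D2, 926.10 in D3 and 3689.17 in D4. The groups did not overlap, and D3 and D1 were the low OXA libraries for S100a9 as they were for S100a8. The mean of S100a9 rose from 317 ± 50.4 to 2506 ± 1187 (SD, n = 5 each). The log2 fold change was 2.82 ± 0.32 (SE, 95% interval 2.14 to 3.50, adjusted p = 2.42e-05, limma), or 7.06-fold.

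The calprotectin subunits did not move in step between the groups. For each S100a8 count there were 14.7, 28.7, 21.2, 33.1 and 23.6 S100a9 counts in A1 to A5, but 4.14, 6.00, 5.38, 4.67 and 3.03 in C1 and D1 to D4. Every vehicle library was above every OXA library. The log2 ratio of S100a8 to S100a9 went from -4.44 ± 0.41 to -2.17 ± 0.38 (SD, n = 5 each), a difference of 2.27 (exact two-sided permutation test p = 0.00794, the smallest that 5 against 5 libraries allow). The plain ratio within a library does not depend on how that library was scaled, but the log2 ratio has 1 added to each value, and its difference was 2.32 with 0.5 added and 1.93 with 5 added. Both fold changes were known when the pair was chosen. The ratio is one of 3′-end counts and not of molecules, since the capture and counting of the 2 genes can differ. After subtracting each group's mean, the log2 values of the pair had a Pearson correlation of 0.90 over the 10 libraries. It was 0.95 among the OXA libraries alone and 0.59 among the vehicle libraries alone. These correlations are given as a description because the libraries share depth and tissue makeup.

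**Figure D2:**
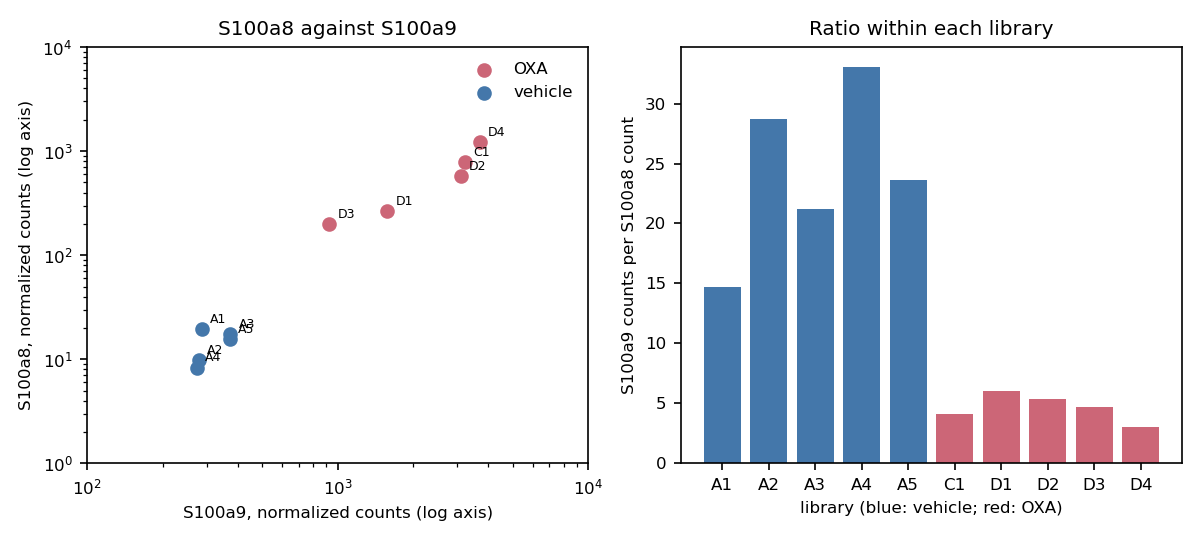
Left, S100a8 against S100a9 in normalized counts, log axes, with 1 point per library. Right, the number of S100a9 counts per S100a8 count in each library, with bars from 0: 14.7 to 33.1 for vehicle and 3.03 to 6.00 for OXA.

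S100a7a (chr3:90654017-90658969, ENSMUSG00000063767.4) ends 10.01 kb before S100a8 and went the other way. In vehicle it was at 624.54, 593.97, 765.86, 695.40 and 822.75 normalized counts in A1 to A5. Under OXA 3 libraries were low, with 260.15 in D1, 249.96 in D3 and 272.98 in D4. The other 2, C1 at 580.13 and D2 at 704.26, stood close to or within the vehicle range, so the groups overlapped. The mean fell from 701 ± 95.3 to 413 ± 213 (SD, n = 5 each), and the log2 fold change was -0.90 ± 0.27 (SE, adjusted p = 0.0230, limma). This call rests on single libraries: without A3, A5, D3 or D4 the adjusted p was 0.0525, 0.0546, 0.0585 and 0.0579. With edgeR on the recovered reads it was 0.0517, and with limma without the variance trend 0.0520.

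Within the libraries, the alarm members were then set against each of the other 7. S100a8 gained on all 7 without overlap between the groups, by 4.01 (against S100a4) to 6.09 (against S100a14) on the log2 scale. S100a9 also gained on all 7 without overlap, by 1.75 to 3.82. S100a7a did not join them: its ratio fell without overlap against S100a4 and S100a6, overlapped between the groups against the other 5, and differed by -1.97 to 0.11. The log2 ratio of S100a9 to S100a7a went from -1.14 ± 0.11 in vehicle to 2.57 ± 0.72 in OXA (SD, n = 5 each). The values of S100a7a thus went against its place beside the calprotectin pair. These ratios are a description, with no test. The 7 ratios of an alarm member all use its values, so they are not separate results. S100a3, one of the other 7, had an OXA mean under the floor of 3 reads.

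**Figure D3:**
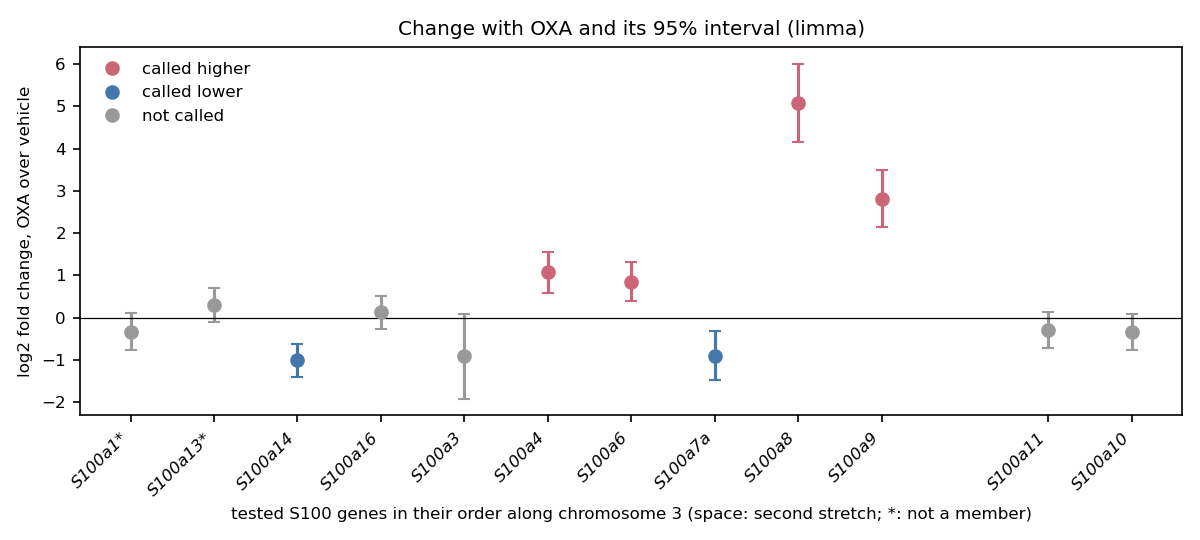
Log2 fold change of OXA over vehicle (limma, n = 5 per group) with its 95% interval for the 12 tested S100 genes of chromosome 3 in their genomic order, with * on those that are not among the 10. S100a8 and S100a9 stand at 5.09 and 2.82, while S100a7a, next to S100a8, is at -0.90.

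Among the members that work inside the cell, S100a4 and S100a6 were higher under OXA. S100a4, which binds non-muscle myosin and is abundant in fibroblasts and leukocytes, lies at chr3:90603771-90606345 (ENSMUSG00000001020.8). It counted 543.39, 475.47, 1074.74, 466.37 and 736.90 in A1 to A5, and 1212.92, 1238.93, 1747.08, 1048.69 and 1436.72 in C1 and D1 to D4. Only A3 reached into the OXA range, where it stood above D3. S100a4 rose from 659 ± 256 to 1337 ± 268 (SD, n = 5 each; log2 fold change 1.07 ± 0.22, SE, adjusted p = 0.00245, limma). The predicted gene Gm42674 overlaps 51.7% of the exon bases of S100a4 and was at 0 in all libraries, so reads in the shared stretch may have been dropped as ambiguous or given to S100a4.

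S100a6, or calcyclin, is a partner of the ubiquitin ligase adaptor Cacybp and lies at chr3:90612882-90624481 (ENSMUSG00000001025.8). Vehicle libraries held 4847.36, 4356.52, 6691.03, 4098.68 and 6901.11 normalized counts in A1 to A5. OXA libraries held 8904.19, 7705.12, 10413.70, 8084.00 and 13302.39 in C1 and D1 to D4, all above the highest vehicle library. S100a6 rose from 5379 ± 1323 to 9682 ± 2275 (SD, n = 5 each). Its log2 fold change was 0.85 ± 0.21 (SE, adjusted p = 0.00802, limma), or 1.81-fold. A muscle score was taken as the mean log2(value + 1) of the striated and smooth muscle markers together. With this score as a covariate the log2 fold change of S100a6 was 0.46 and the call was lost (adjusted p = 0.09998, limma).

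S100a14, an epithelial member (chr3:90526856-90529137, ENSMUSG00000042306.11), was the clearest decrease. In A1 to A5 it stood at 6091.29, 6050.68, 8674.86, 6232.68 and 10182.11, against 3631.90, 3106.22, 4158.60, 3760.91 and 3537.51 in C1 and D1 to D4. No OXA library reached the vehicle range, and the OXA libraries lay within 1.34-fold of each other. S100a14 fell from 7446 ± 1888 to 3639 ± 380 (SD, n = 5 each). Its log2 fold change was -1.004 ± 0.182 (SE, adjusted p = 9.90e-04, limma), or 2.01-fold lower.

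S100a16, S100a11 and S100a10 did not pass the test, and their intervals bound what change they may have had. S100a16 (chr3:90537254-90543451, ENSMUSG00000074457.10), the gene after S100a14, had 6638.79, 6213.42, 8929.17, 6109.07 and 9499.58 counts in vehicle and 8394.29, 7451.36, 7163.95, 8462.29 and 8751.19 in OXA. Its log2 fold change was 0.13 ± 0.18 (SE, 95% interval -0.26 to 0.51, adjusted p = 0.631, limma), and all 5 OXA values lay inside the vehicle range. S100a11 (chr3:93520488-93526587, ENSMUSG00000027907.4), the partner of annexin A1 in the cornified envelope, went from 9157 ± 1779 to 7509 ± 1522 (SD, n = 5 each), a log2 fold change of -0.29 ± 0.20 (SE, 95% interval -0.71 to 0.13, adjusted p = 0.289, limma). S100a10 (chr3:93555080-93564943, ENSMUSG00000041959.14) forms a complex with annexin A2 and has lost the ability to bind calcium. It went from 3686 ± 1091 to 2859 ± 472 (SD, n = 5 each), a log2 fold change of -0.33 ± 0.20 (SE, 95% interval -0.76 to 0.10, adjusted p = 0.228, limma). With the muscle score as a covariate S100a10 was called lower (log2 fold change -0.71, adjusted p = 0.0144).

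S100a3 (chr3:90560578-90603002, ENSMUSG00000001021.12), a protein of the hair cuticle, was near the limit of counting. It had 9.24, 4.50, 6.82, 4.67 and 12.88 normalized counts in vehicle and 3.82, 2.84, 1.81, 3.83 and 4.79 in OXA, which stood for 6 to 9 and 1 to 5 reads per library. A floor of 3 reads was worth 2.82 normalized counts on average in vehicle and 3.50 in OXA, so the OXA mean of 3.42 lay under it. The log2 fold change of -0.91 ± 0.46 (SE, adjusted p = 0.154, limma) did not pass the test, while the exact two-sided permutation test gave p = 0.0238 without adjustment. Of the 23 alternatives in which it reached the filter, only limma without the variance trend called it lower (adjusted p = 0.0394).

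In the vehicle group A3 and A5 were the 2 highest libraries for S100a4, S100a6, S100a10, S100a11, S100a14 and S100a16 alike, and also for S100a9 and S100a7a. The same libraries held the largest summed counts of differentiated epithelium markers, 883302 in A3 and 1073048 in A5, against 629881 to 693741 in the other 3. Over the 10 libraries with group means subtracted, S100a11 followed that sum with a correlation of 0.97, S100a14 with 0.80 and S100a7a with 0.80, but S100a8 with 0.32. Among the members the closest pairs were S100a4 with S100a10 (0.95), S100a11 with S100a14 (0.90) and S100a8 with S100a9 (0.90). These correlations describe 10 libraries that share depth and tissue makeup. A3, A5, D2 and D4 have negative scores on the second principal component of the genes tested (14.9% of the variance). Leaving them out left 4 members called higher and 2 lower. Of the libraries left out, A5, D2 and D4 are also the 3 shallowest.

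The 10 members fall into 2 stretches of chromosome 3 that are 2.82 Mb apart, with the epidermal differentiation complex between them. The first stretch (chr3:90510734-90695721) holds 12 S100 genes in 185.0 kb, and the second (chr3:93520488-93564943) holds S100a11 and S100a10. S100a4 and S100a6, and S100a8 and S100a9, are near each other and rose, but S100a14 fell beside S100a16, which did not pass the test, and S100a7a fell between S100a6 and S100a8. None of the non-S100 genes inside the stretches reached the filter. Just outside, Pglyrp4, an antimicrobial peptidoglycan-recognition protein that follows S100a9, rose from 133 to 255 (log2 fold change 0.89 ± 0.24, SE, adjusted p = 0.0121, limma). On the far side Chtop was at -0.20 ± 0.13 (adjusted p = 0.267), Snapin fell (-0.59 ± 0.18, adjusted p = 0.0239) and Ilf2 rose (0.63 ± 0.19, adjusted p = 0.0232).

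Of 8 further S100 genes, 3 reached the filter and none passed the test. S100a1, a calcium regulator of striated muscle, went from 800 to 643 (log2 fold change -0.33, adjusted p = 0.235, limma). S100a13, a cofactor in the release of interleukin 1 alpha, went from 172 to 209 (0.30, adjusted p = 0.245). S100b, the glial member on chromosome 10, went from 38.9 to 24.8 (-0.94, adjusted p = 0.196). Of the 7 fused-type S100 genes, whose proteins carry an S100 domain before a long repeat and are built into the cornified layer, 4 were tested and 3 fell. Over all genes tested 14.2% were called lower. Hrnr fell from 1449 to 112 and Rptn from 6507 to 1842, with log2 fold changes of -4.30 ± 0.63 and -2.16 ± 0.40 (SE, adjusted p = 0.000212 and 0.00118, limma). Flg fell from a mean of 61.0 to 1.57 (adjusted p = 2.64e-05), and since the OXA mean lay under the floor of 3 reads the size of its change is not given. Tchh did not pass the test, and Crnn, Flg2 and Tchhl1 did not reach the filter.

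Of 21 receptors and binding partners of the S100 proteins, 20 were tested, of which 3 rose and 3 fell, a share close to the 29.9% of all genes, and their median log2 fold change was 0.11. Myd88, the adaptor through which Toll-like receptor 4 signals, rose from 295 to 488 (0.70 ± 0.17, SE, adjusted p = 0.00771, limma), while Tlr4 itself (0.25, adjusted p = 0.434) and Ager, which encodes RAGE (-0.41, adjusted p = 0.624), did not pass the test. Plau, the urokinase that activates plasminogen, was low throughout and rose from 2.55 to 13.5, and Plat, the tissue-type activator, rose from 62.3 to 109. Ahnak, a scaffold bound by S100a10 and annexin A2, fell from 4199 to 2602 (-0.71 ± 0.16, SE, adjusted p = 0.00506), and Anxa11, a partner of S100a6, fell from 217 to 131 (-0.75 ± 0.17, SE, adjusted p = 0.00420). Anxa6 fell as well (-0.56, adjusted p = 0.0416). Anxa2 (0.34, adjusted p = 0.160) and Anxa1 (0.30, adjusted p = 0.286), the partners of S100a10 and S100a11, and Cacybp (0.03, adjusted p = 0.900), the partner of S100a6, did not pass the test.

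Cytokines and factors known to switch on S100 alarm genes in epithelium were mixed. Of 25 such genes 18 were tested, 7 rose, 4 fell and 7 did not pass, so that 11 of 18 were called beside 29.9% of all genes. Junb rose from 674 to 2171 (log2 fold change 1.68 ± 0.19, SE) and Stat3 from 775 to 1492 (0.93 ± 0.14, SE), with no overlap between the groups in either. Fosl1, Il1b, Il17ra, Rela and Nfkbiz were the others that rose. Cebpd fell from 350 to 172 (-1.02 ± 0.20, SE), Il1f8, which encodes interleukin 36 beta, from 208 to 64.3, and Il1a from 52.0 to 12.8. Il22 was at 0 reads in all libraries, and Il17a, Il17f, Il6, Tnf, Osm and Il22ra1 were too low to test.

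Markers of cells that could carry calprotectin were read beside S100a8 and S100a9. Of 18 neutrophil markers 8 were tested, of which 5 rose and 2 fell, beside 15.7% called higher and 14.2% lower over all genes tested. Retnlg, a granulocyte gene, counted 2.05, 2.25, 0.97, 1.04 and 1.43 in vehicle and 41.98, 71.08, 32.59, 16.28 and 19.16 in OXA and was called higher, though all its vehicle values lay under the floor of 3 reads, so no fold is given. Its highest OXA library was D1, which was among the low ones for S100a8, whereas D4, the highest for S100a8, was among the low ones for Retnlg. D3 was the lowest OXA library for both genes. The neutrophil-defining Ly6g, Mpo and Elane together gave 3 reads over all vehicle libraries and 7 over all OXA libraries, although none of the 7 defining markers was at 0 in all libraries. Camp fell from 24.4 to 9.88 and Ltf rose from 4.98 to 27.8. The summed neutrophil list ran from 533 to 708 in vehicle and from 134 to 343 in OXA, a sum led by Il1r2, which fell from 533 to 50.4. Without Il1r2 the direction turned: the sum of the other 17 ran from 73.0 to 91.6 in vehicle and from 108 to 310 in OXA, with every OXA library above every vehicle library.

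Monocyte and macrophage markers rose in 12 of 14 cases, and their sum ran from 3187 to 5570 in vehicle and from 6658 to 12713 in OXA. The marker counts here stand beside 15.7% of all genes tested called higher and 14.2% called lower. Ly6c2, a marker of inflammatory monocytes, rose from 13.4 to 224 (log2 fold change 3.801 ± 0.368, SE), and Ccr2, their chemokine receptor, from 39.9 to 383 (3.19 ± 0.24, SE). D3 had the lowest sum of the OXA libraries and also the lowest S100a8 and S100a9. The highest sum was in D2, whereas S100a8 and S100a9 were highest in D4. Ly6c2 (491.68) and Ccr2 (573.09) were also highest in D4, and among the OXA libraries both were lowest in D3 (112.05 and 218.36). With group means subtracted, the marker sum had a correlation of 0.63 with S100a8 and 0.78 with S100a9, as a description. Differentiated epithelium markers fell in 6 of 7 cases, from a sum of 629881 to 1073048 in vehicle to 203397 to 538248 in OXA, and all 6 markers of proliferating cells rose. The keratins of injured or activated epithelium, chosen after their values were seen, were higher in every OXA library: Krt6a ran from 94.5 to 474 in vehicle and from 41598 to 78387 in OXA, and Krt16 from 2.25 to 98.7 and from 7584 to 19338. Fibroblast markers rose in 2 of 9 cases, not far from the share over all genes. Of 7 eosinophil markers only 1, Ear2, reached the filter, so calls say little about this list. Ear2 had means of 8.25 in vehicle and 34.8 in OXA and did not pass the test (adjusted p = 0.132, limma). The summed eosinophil list ran from 2.86 to 13.64 in vehicle and from 12.77 to 117.67 in OXA. Among the OXA libraries only D4 lay within the vehicle range of that sum. The part of these cell types in the S100 differences was not tested.

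Striated muscle, which surrounds the mouse esophagus, took uneven shares of the OXA libraries: its marker sum ran from 115153 to 145225 in vehicle and from 56005 to 202578 in OXA. The 2 OXA libraries with the most muscle signal, D1 and D3, were those with the least S100a8 and S100a9, and D4, with the least muscle, had the most. Over the 10 libraries with group means subtracted, the correlation with the striated muscle sum was -0.87 for S100a8 and -0.83 for S100a9, as a description. Smooth muscle markers were called lower in 3 of 7 cases, beside 14.2% of all genes tested. Their sum ran from 17769 to 32161 in vehicle and from 11435 to 24573 in OXA. With that sum the correlation was -0.59 for S100a8, -0.73 for S100a9 and 0.13 for S100a3. In the other members it ran from -0.32 (S100a16) to -0.78 (S100a10). The muscle score used as a covariate joins the striated and smooth muscle markers. With it S100a8 was still higher by 4.05, S100a9 by 1.99 and S100a4 by 0.66 (adjusted p = 0.0448, limma) on the log2 scale. S100a14 and S100a7a were lower by 1.22 and 1.39.

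**Figure D4:**
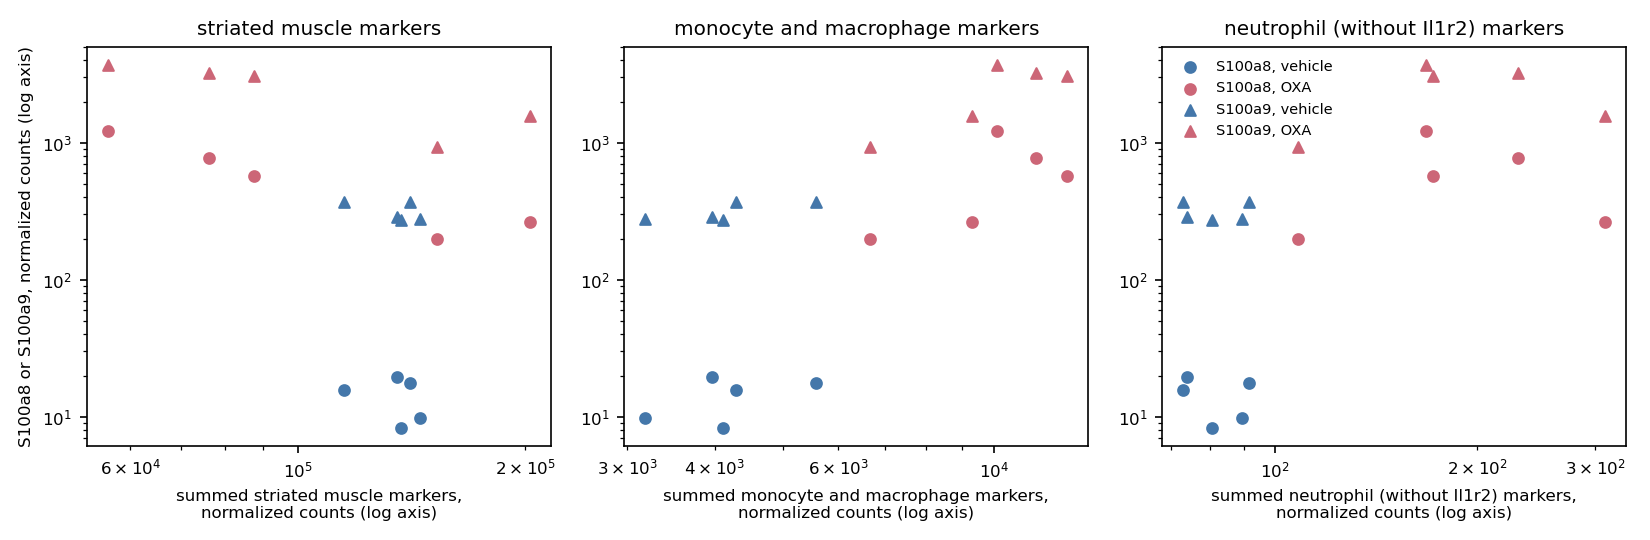
S100a8 (circles) and S100a9 (triangles) in each library against the summed normalized counts of striated muscle, monocyte and macrophage, and neutrophil markers, all on log axes. The neutrophil sum leaves out Il1r2. Among the OXA libraries S100a8 and S100a9 are lowest in the 2 with the largest muscle sums, and the neutrophil sums without Il1r2 (73.0 to 91.6 in vehicle) are higher in OXA (108 to 310).

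By a set rule, the 5 genes most like each calprotectin subunit in how they varied between libraries within the groups were listed from 11871 genes with a mean of at least 20. For S100a8 they were Rnf227 (correlation 0.96), Trappc2 (0.95), Unc5a (0.95), Elovl5 (0.94) and Stx5a (0.94). For S100a9 they were Zfp296 (0.96), Ppp1r13b (0.96), Lce1k (0.95), Il1f6 (0.95) and Atp8b1 (0.94). No gene was on both lists, and none of the 10 was called higher under OXA. Rnf227 (log2 fold change -4.24, adjusted p = 8.07e-07), Lce1k (-4.95, adjusted p = 1.55e-05) and Ppp1r13b (-1.07, adjusted p = 0.00531) were called lower (limma). The others did not pass the test. As the highest of 11871 correlations over 10 libraries, these values are high by selection. Il1f6 encodes interleukin 36 alpha, a cytokine of the epidermis, and went from 757 to 660 (log2 fold change -0.42, adjusted p = 0.434, limma).

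**Figure D5:**
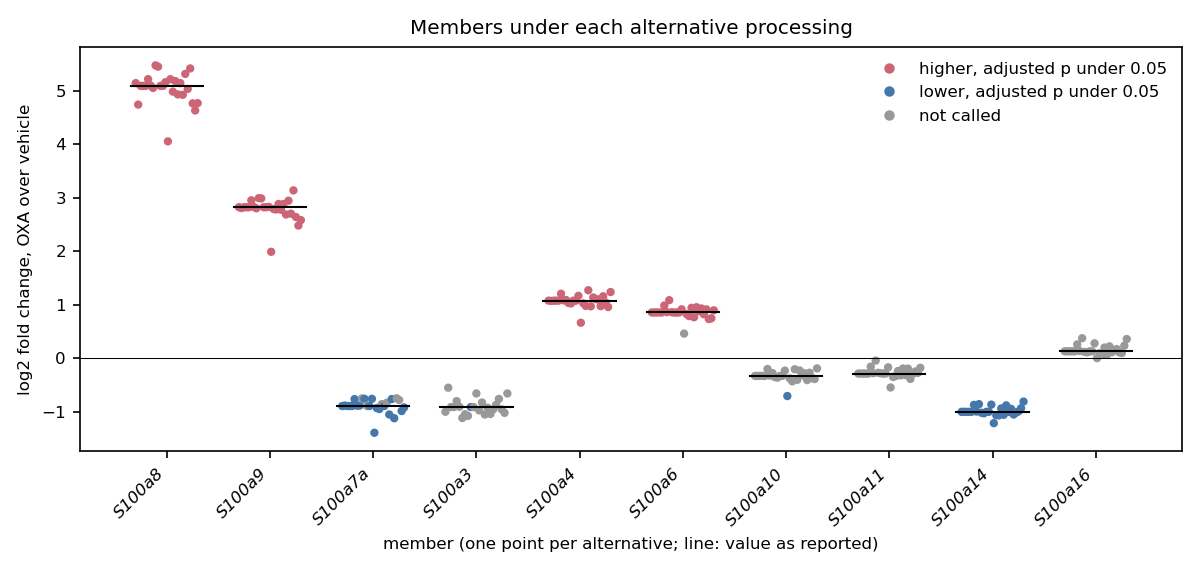
Log2 fold change of OXA over vehicle for each member under each alternative way of processing (points; line, value as reported), coloured by whether the adjusted p was under 0.05. S100a8, S100a9, S100a4 and S100a14 kept their call in all 26, and S100a7a lost it in 6.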

How the data were processed

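Each deposited value is a normalized signal: a gene's count over its library's size factor, rounded to 2 decimals, which the values themselves show. The submitters' processing notes list FastQC 0.11.5, cutadapt 1.10 with Trim Galore, Bowtie2 2.2.6, TopHat2 2.1.0, DESeq2 1.18.1, HTSeq 0.11.2 and the build GRCm38 without saying what each did. The strand setting, the handling of reads shared by genes and whether molecular identifiers were collapsed are not stated there, so floors cover counting error only. Dividing by each library's step gave whole reads for 100% of values (tolerance 0.006). All 10 members extend 300 bases past the 3′ end of their GENCODE M21 models in the table, as do 92.8% of matched protein-coding genes.

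From the values, limma 3.58.1 (R 4.3.3; lmFit, eBayes with trend) was fitted on log2(value + 1) over 14712 genes (mean at least 5 over all libraries), OXA against vehicle, two-sided, with adjusted p under 0.05 called. A pseudocount of 1 understates changes of low genes. Exact permutation tests over 252 splits (NumPy 2.4.6) were run for each member and for the ratio of S100a8 to S100a9. The count tests edgeR 4.0.16 and DESeq2 1.42.0 on recovered reads were alternatives, of which edgeR called 2411 genes higher and 1972 lower, DESeq2 2627 and 2249, and limma 2309 and 2085. Other alternatives changed the pseudocount, the filter, the scaling and the limma settings, added a score of striated and smooth muscle markers, or left out libraries. The fit was tested on simulated data. The members and lists were chosen with earlier results of these data known. Named were all 10 members, other S100 genes, neighbours, fused-type genes and up to 5 tested genes of each list by smallest p, plus, chosen after their values were seen, further partners, drivers and markers whose levels bear on the text.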

Additional observations from a re-analysis of the deposited data

How the results depend on the processing

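The 4 members called higher (S100a8, S100a9, S100a4 and S100a6) remained called in all 26 alternatives, except S100a6 with the muscle score as a covariate. S100a8 ran from 4.05 to 5.47 and S100a9 from 1.99 to 3.13 on the log2 scale, with both lowest values under that covariate. S100a14 remained called lower in all 26. The count of members called lower was 1 with edgeR in place of 2, 3 with the muscle score as a covariate, where S100a10 was added, and 1 to 2 when single libraries were left out, through the loss of S100a7a, whose adjusted p (limma and the count tests) ran from 0.00241 to 0.0585 over its alternatives. S100a16, which was not called, turned to -0.000180 (adjusted p = 0.9999, limma) with the muscle score. Of the 10 members 7 had an exact permutation p under 0.05, 6 to 7 when single libraries were left out, and 4 without the 3 shallowest libraries (D2, D4 and A5), where fewer splits exist. The difference in the S100a8 to S100a9 log2 ratio was 1.93 with a pseudocount of 5, 2.32 with 0.5, 2.12 to 2.43 when single libraries were left out and 2.19 without A3, A5, D2 and D4, an alternative chosen after seeing the data, where the exact permutation p of 0.1 is the smallest that 3 against 3 can give. Pairs of an alarm and another member whose ratio did not overlap numbered 16 of 21, and 16 to 17 when single libraries were left out. These pairs share members, and no share over all pairs of genes was taken. Scaling to library totals called 2915 genes higher and 1545 lower, against 2309 and 2085, moved the median of all genes to 0.11 from -0.01, and turned no member's direction. The summed neutrophil markers differed by -367 normalized counts (OXA minus vehicle means), and by 116 without Il1r2, also chosen after seeing the data. S100a3 reached the filter in 23 of the alternatives. No paired analysis was possible because the groups share no replicate names. Depth limits S100a3 and the low markers, at a few reads per library.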
